A study of Mus musculus with 24 samples.

Results

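The genes that make, use and carry lactate were followed here in 4T1 cells, a mouse mammary carcinoma line, over 11 days with added lactic acid. They are 3 lactate dehydrogenase genes (Ldha, Ldhb and Ldhd), 4 genes of the monocarboxylate transporter family (Slc16a1, Slc16a3, Slc16a7 and Slc16a6) and 2 genes of the membrane proteins that escort these carriers (Bsg and Emb). They were chosen by symbol, and every probe set naming one of the symbols was taken, which gave 9 of 19938 genes and 10 of 35557 probe sets, since Ldhb had 2.

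Total RNA was profiled on 24 Affymetrix arrays. The control was kept in 3 mM glucose with no lactic acid, and treated cells in 3 mM glucose with 20 mM lactic acid until they were collected on day 1, 3, 4, 5, 7, 9 or 11. Each of the 8 groups had 3 arrays numbered as biological replicates, and this number limits the precision. The study asked how gene expression shifts over time while lactic acid lengthens the survival of tumour cells short of glucose. The length of the control culture is not given in the labels, so lactic acid and time in culture cannot be told apart in any comparison with control. All groups are 1 cell line.

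Lactate dehydrogenase is a tetramer of subunits from Ldha and Ldhb that interconverts pyruvate and lactate, and Ldha is among the best known targets of Myc and of hypoxia-inducible factor. Lactate crosses the plasma membrane together with a proton through carriers of the SLC16 family, which need an immunoglobulin-like partner, basigin or embigin, to reach the surface. In tumours these carriers let some cells export lactate and others take it up as fuel.

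In short, the Ldha and Slc16a6 signals dropped between day 1 and day 3 and stayed low, Bsg was lowered on days 3 and 4, Slc16a1 was raised on the same days, and Ldhd climbed to a peak on day 5. Ldhb gave 2 different answers from its 2 probe sets. Slc16a3, Slc16a7 and Emb passed the test in none of the comparisons, though each did in some alternative fits. A gene is said to have risen or fallen where limma gave a p below 0.05 after Benjamini-Hochberg adjustment over all 19938 genes. Changes are differences on the log2 scale, with the standard error (SE) of the fit.

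The promoters of Ldha, Slc16a1 and Ldhd are shown because each holds CACGTG, the E-box that Myc and its relatives bind, and because these 3 genes moved in different ways. Each sequence is the 250 bases upstream of an annotated start site in RefSeq's mouse table (GRCm38.p6), written 5′ to 3′ along the gene's strand, with CACGTG in capitals. The Ldha promoter lies at chr7:46845554-46845803 on the plus strand, the Slc16a1 promoter at chr3:104638414-104638663 on the plus strand and the Ldhd promoter at chr8:111630337-111630586 on the minus strand.
Ldha: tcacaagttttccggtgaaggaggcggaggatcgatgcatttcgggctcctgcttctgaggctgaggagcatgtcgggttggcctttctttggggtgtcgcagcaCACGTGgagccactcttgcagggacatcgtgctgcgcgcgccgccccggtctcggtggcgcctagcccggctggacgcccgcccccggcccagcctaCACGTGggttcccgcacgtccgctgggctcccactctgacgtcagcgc
Slc16a1: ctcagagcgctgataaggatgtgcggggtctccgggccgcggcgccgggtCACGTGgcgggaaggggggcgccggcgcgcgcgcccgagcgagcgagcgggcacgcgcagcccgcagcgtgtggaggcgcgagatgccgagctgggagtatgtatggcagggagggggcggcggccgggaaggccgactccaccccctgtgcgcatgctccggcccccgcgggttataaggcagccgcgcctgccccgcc
Ldhd: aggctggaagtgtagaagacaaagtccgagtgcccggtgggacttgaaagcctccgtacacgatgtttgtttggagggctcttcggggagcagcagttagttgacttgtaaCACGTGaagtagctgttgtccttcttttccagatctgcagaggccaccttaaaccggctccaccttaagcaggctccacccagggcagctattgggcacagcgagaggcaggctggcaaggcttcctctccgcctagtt

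The table held 7 promoters for 6 of the 9 genes, with 2 start sites for Ldha, and none for Bsg, Slc16a6 or Slc16a7. CACGTG, which reads the same on both strands, began 145 and 48 bases before the Ldha start site shown, 200 bases before that of Slc16a1 and 139 bases before that of Ldhd. It was present in 6.02% of all 32851 promoters of this length, and 0.429% held at least 2 copies. The second Ldha start site, Ldhb, Slc16a3 and Emb had no copy in this window. The core of the hypoxia response element, ACGTG or GCGTG on either strand, was in 38.6% of promoters and in all of these except that of Emb. Each CACGTG also contains ACGTG on both strands, so the motifs overlap. TGACCTTG, bound by oestrogen-related receptors, was in 1.33% of promoters and in none of the 7. These matches describe letters and not binding.

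**Figure D1:**
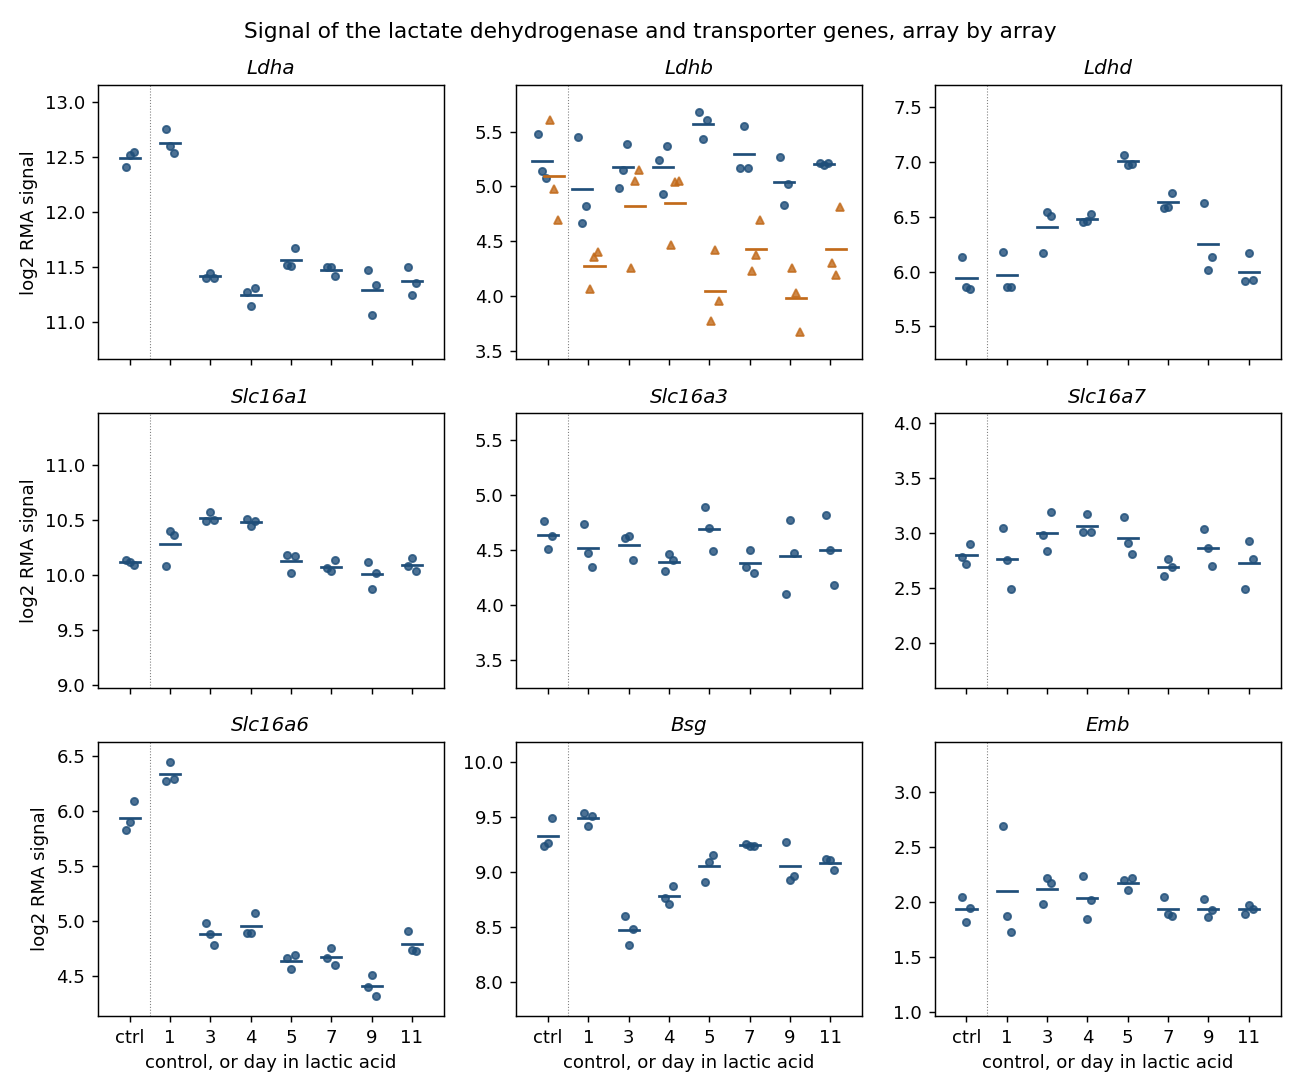
Log2 RMA signal (vertical axis) of each gene on each of the 24 arrays, in control (ctrl) and by day in lactic acid (horizontal axis). Points are arrays and bars are means of 3 arrays. In the Ldhb panel circles are probe set 10462035 and triangles probe set 10549097. All panels have a vertical axis of the same length in log2 units, and Ldha and Slc16a6 show 1 large drop between day 1 and day 3.

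Ldha, which encodes the subunit favouring lactate formation, fell about 2-fold. The control arrays of probe set 10553301 read 12.41, 12.52 and 12.55 and the day 1 arrays 12.76, 12.60 and 12.54. Day 3 arrays read 11.40, 11.45 and 11.40, day 4 arrays 11.27, 11.15 and 11.31, and day 5 arrays 11.52, 11.51 and 11.67. Day 7 arrays read 11.50, 11.50 and 11.42, day 9 arrays 11.47, 11.06 and 11.34, and day 11 arrays 11.50, 11.25 and 11.36. Day 1 overlapped control, and all 18 arrays from day 3 on lay below all 6 of control and day 1. In bulk RNA, fewer cells of a kind and less RNA per cell cannot be told apart.

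The Ldha change from control was 0.14 on day 1 (SE 0.11, adjusted p = 0.483). It was -1.07 on day 3 (2.11-fold lower, adjusted p = 1.03e-07), -1.25 on day 4 (2.38-fold, 6.77e-09) and -0.93 on day 5 (1.90-fold, 8.18e-07). On days 7, 9 and 11 it was -1.02, -1.20 and -1.12, the last 2.17-fold lower (adjusted p = 3.48e-08). The only sampled step in which Ldha changed was day 1 to day 3, a fall of 1.22 (adjusted p = 1.46e-08). From day 4 to day 5 the signal was 0.32 higher, which did not pass the test (adjusted p = 0.0600), though it did in 5 of the alternative fits. Ordered by mean, day 1 and control came first and overlapped, then day 5, then days 7, 3, 11, 9 and 4, each overlapping its neighbour. The 3 Ldha pseudogenes in the RefSeq table may share probe sequence with the gene, which was not tested.

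Ldhb encodes the subunit that favours lactate use, and its probe sets disagreed. On probe set 10462035, the brighter, control arrays read 5.48, 5.14 and 5.08, day 1 arrays 5.45, 4.67 and 4.82 and day 5 arrays 5.68, 5.43 and 5.61, within a range of 4.67 to 5.68 over all 24 arrays. This signal passed the test in none of the 13 comparisons, and its largest change from control was 0.34 on day 5 (SE 0.18, adjusted p = 0.178), with day 5 and control overlapping. On probe set 10549097 the control arrays were spread over 5.61, 4.98 and 4.69. Day 1 arrays read 4.07, 4.36 and 4.40, day 5 arrays 3.77, 4.42 and 3.96, and day 9 arrays 4.26, 4.03 and 3.67, all below control. In the fit to every probe set it fell by 1.04 on day 5 (adjusted p = 0.00731) and by 1.11 on day 9 (adjusted p = 0.00381), and it passed on no other day. The mean of both gave -0.65 on day 9 (adjusted p = 0.00523). RefSeq lists 1 Ldhb pseudogene, and which copy each probe set reads was not tested.

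Ldhd encodes the mitochondrial dehydrogenase of D-lactate, the mirror form made from methylglyoxal, and it rose and then returned. Control arrays read 6.13, 5.86 and 5.84, and day 1 arrays 6.18, 5.86 and 5.86. Day 3 arrays read 6.17, 6.54 and 6.51, day 4 arrays 6.45, 6.46 and 6.52, and day 5 arrays 7.06, 6.97 and 6.98. Day 7 arrays read 6.58, 6.59 and 6.72, day 9 arrays 6.62, 6.01 and 6.13, and day 11 arrays 5.91, 6.17 and 5.92. All arrays of days 3, 4, 5 and 7 lay above control, and those of days 9 and 11 overlapped it.

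Ldhd rose by 0.46 on day 3 (SE 0.14, adjusted p = 0.0185), 0.53 on day 4 (adjusted p = 0.00662), 1.06 on day 5 (2.09-fold, adjusted p = 4.30e-06) and 0.69 on day 7 (adjusted p = 0.000721). On day 11 the difference was 0.06 (adjusted p = 0.872). The step from day 4 to day 5 was a rise of 0.53 (adjusted p = 0.0174), and that from day 1 to day 3 a rise of 0.44 (adjusted p = 0.0253). The first of these was lost without day 4 replicate 1 or 2 or day 5 replicate 1 (adjusted p 0.0511 to 0.0577) and the other without day 1 replicate 2 or 3 or day 3 replicate 2 or 3 (0.0800 to 0.112), with ranges over all alternatives of 0.000968 to 0.0577 and 8.59e-06 to 0.156. On day 9 the change was 0.30 (adjusted p = 0.135). Replicate 1 of that day read 6.62 against 6.01 and 6.13 in the others. Leaving out the 3 arrays that stood apart, described further on, left replicate 1 as the day's single array and gave 0.67. Within day 9, however, replicate 1 had the lowest median r with its group (0.989, against 0.991 and 0.992). The day 3 rise lost its call without control replicate 2 or 3 or day 3 replicate 2 or 3 (adjusted p 0.0763 to 0.0884), and its adjusted p ran from 0.000206 to 0.0891 over the alternatives.

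Slc16a1 encodes MCT1, the widely expressed carrier that moves lactate in either direction, and it was raised for a short time. Control arrays read 10.13, 10.12 and 10.09, and day 1 arrays 10.08, 10.40 and 10.36. Day 3 arrays read 10.49, 10.57 and 10.50 and day 4 arrays 10.51, 10.44 and 10.49, above every array of control and day 1. Day 5 arrays read 10.18, 10.02 and 10.17, day 7 arrays 10.06, 10.03 and 10.13, day 9 arrays 10.12, 9.87 and 10.02, and day 11 arrays 10.08, 10.15 and 10.03. From day 5 on each day overlapped control.

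Slc16a1 rose by 0.41 on day 3 (1.33-fold, SE 0.10, adjusted p = 0.00379) and by 0.36 on day 4 (adjusted p = 0.00882). It then fell by 0.35 from day 4 to day 5 (adjusted p = 0.0248). From day 5 on it differed from control by 0.01, -0.04, -0.11 and -0.03. Centring arrays on the median of all probe sets gave 0.32 on day 3 (adjusted p = 0.120) and 0.36 on day 4 (0.0760), and over all alternatives the adjusted p ran from 2.02e-05 to 0.120 and from 2.72e-05 to 0.0760. The step to day 5 was lost without any 1 of 5 arrays, day 4 replicates 1 to 3 and day 5 replicates 2 and 3 (adjusted p 0.0510 to 0.109, and 0.00110 to 0.140 over all alternatives).

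Slc16a6 encodes MCT7, a family member linked to export of ketone bodies, and it had the largest fall of the set. Control arrays read 5.83, 5.90 and 6.09 and day 1 arrays 6.27, 6.45 and 6.29, all above control. Day 3 arrays read 4.98, 4.88 and 4.78, day 4 arrays 4.89, 4.89 and 5.07, and day 5 arrays 4.66, 4.56 and 4.69. Day 7 arrays read 4.66, 4.75 and 4.60, day 9 arrays 4.40, 4.51 and 4.31, and day 11 arrays 4.91, 4.73 and 4.72. Every array from day 3 on lay below every control array. The signal was above the array's median gene on only 6 of the 24 arrays, so the later levels were dim and a fold against them may be understated.

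Slc16a6 rose by 0.40 on day 1 (1.32-fold, SE 0.11, adjusted p = 0.0347), the only call among the 9 genes on that day. The day 1 call was lost without control replicate 1 (adjusted p = 0.148), control replicate 2 (0.126) or day 1 replicate 2 (0.0585), and over all alternatives the adjusted p ran from 5.34e-05 to 0.458. The gene then fell by 1.45 from day 1 to day 3 (2.74-fold, adjusted p = 5.73e-10). Against control it fell by 1.06 on day 3 (2.08-fold, adjusted p = 7.48e-08) and changed by -0.99, -1.30 and -1.27 on days 4, 5 and 7. The lowest mean was on day 9, at -1.53 (2.89-fold lower, adjusted p = 1.06e-10). On day 11 the change was -1.16 (2.23-fold lower, adjusted p = 1.14e-08). All 3 arrays of day 11 lay above those of day 9, a difference of 0.37 that did not pass the test (adjusted p = 0.372).

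Slc16a3 encodes MCT4, the lactate exporter of glycolytic cells, and its probe set was dim, below the median gene of its array on all 24 arrays. Its lowest value was 4.10, its median 4.49 and its highest 4.89. Control arrays read 4.76, 4.51 and 4.63 and day 11 arrays 4.82, 4.50 and 4.18, a change of -0.13 (95% interval -0.47 to 0.21). Slc16a7 encodes MCT2, a carrier of high affinity, and ran from 2.49 over a median of 2.85 to 3.19, again below the array's median gene throughout. Its largest difference from control was 0.26 on day 4. A dim probe set can hide a change, so neither a missing call nor an interval limits how far these transcripts may have changed.

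Bsg encodes basigin, the partner of MCT1 and MCT4, and it dipped and then moved back towards control. Control arrays read 9.24, 9.26 and 9.49 and day 1 arrays 9.54, 9.42 and 9.51. Day 3 arrays read 8.60, 8.33 and 8.48, day 4 arrays 8.76, 8.71 and 8.87, and day 5 arrays 8.91, 9.09 and 9.15. Day 7 arrays read 9.25, 9.24 and 9.24, day 9 arrays 9.27, 8.93 and 8.96, and day 11 arrays 9.12, 9.11 and 9.02. Days 3 and 4 did not overlap each other or control, days 5 and 11 lay just below control, and days 7 and 9 overlapped it.

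Bsg fell by 0.86 on day 3 (1.81-fold, SE 0.11, adjusted p = 2.83e-06) and by 0.55 on day 4 (1.47-fold, adjusted p = 0.000520). The changes of -0.28 on day 5 (adjusted p = 0.0676), -0.09 on day 7 (0.652), -0.28 on day 9 (0.0749) and -0.25 on day 11 (0.124) did not pass. That of day 5 passed in 6 alternatives, that of day 9 in 5 and that of day 11 in 2, with array weights (adjusted p = 0.0108) and without the 3 arrays that stood apart (0.0425), so these 3 days lay near the threshold. The step from day 1 to day 3 was a fall of 1.02 (2.02-fold, adjusted p = 2.49e-07). On days 3 and 4 Bsg was thus lower while Slc16a1, whose protein it escorts, was higher.

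Emb encodes embigin, the partner of MCT2, and its probe set was below the median gene on every array. Its values ran from 1.73 over a median of 1.97 to 2.69. The highest belonged to day 1 replicate 1, and the other day 1 arrays read 1.87 and 1.73. No change from control exceeded 0.24, on day 5.

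**Figure D2:**
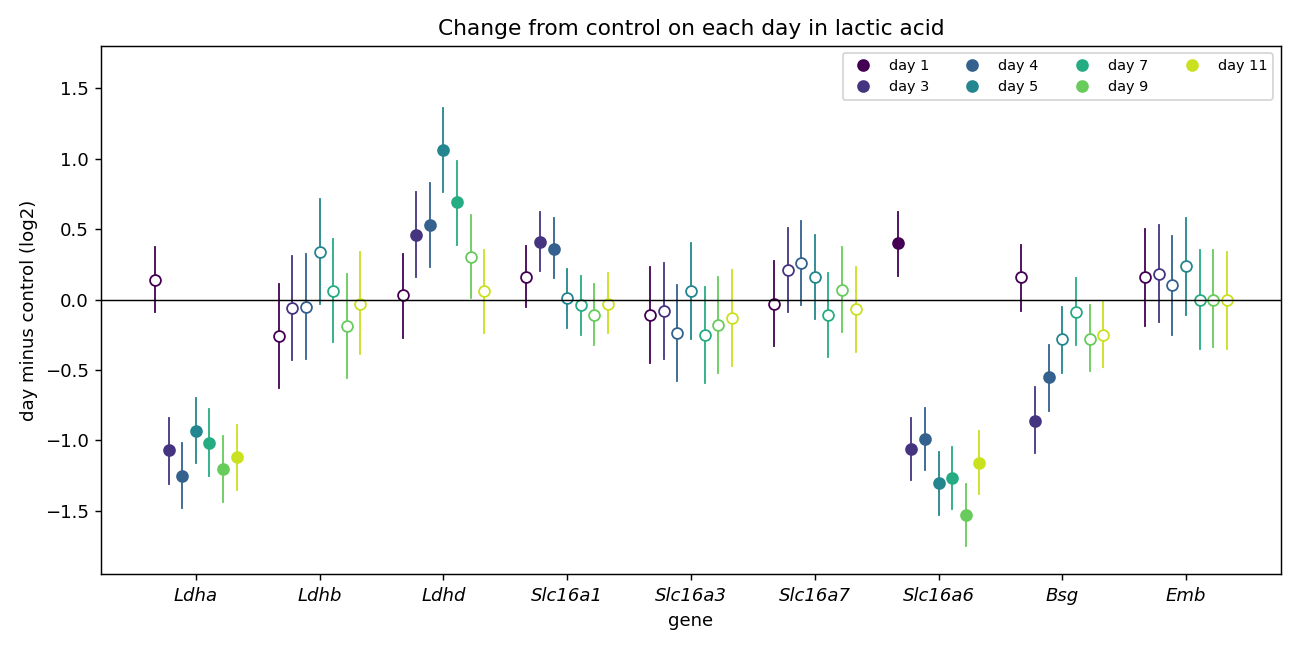
Change from control (vertical axis, log2) of each of the 9 genes (horizontal axis), 1 point for each day in lactic acid, with the 95% interval of the limma fit as a bar. Filled points passed the test, and Ldhb is shown by probe set 10462035. Ldha and Slc16a6 lie between -0.93 and -1.53 from day 3 on, Ldhd peaks at 1.06 on day 5, and Bsg returns towards 0 after -0.86 on day 3.

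Of the 9 genes, 1 was called on day 1, when 4.81% of all genes were. The count was 5 on day 3 (2 higher and 3 lower) and the same on day 4, beside 26.3% and 26.9% of all genes. It was 3 on day 5 and 3 on day 7 (1 higher and 2 lower each), beside 27.5% and 25.4%. Days 9 and 11 each had 2, all lower, beside 27.2% and 25.8%. From day 5 on the share was thus near the background. The median change of the 9 genes ran from -0.18 on day 9 to 0.14 on day 1, and that of all genes on these 2 days was -0.01 and 0.05. The 7 comparisons share the same 3 control arrays.

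Between neighbouring days, 4 of the 9 genes were called from day 1 to day 3 (27.3% of all genes) and 2 from day 4 to day 5 (12.3%). No member was called by limma from day 3 to 4 (1.31% of all genes), day 5 to 7 (5.20%), day 7 to 9 (4.76%) or day 9 to 11 (0.0451%). At an unadjusted p below 0.05 these steps held 1, 1, 2 and 1 of the 9. From day 3 on, the counts over all genes between neighbouring days depended on single arrays. Without day 1 replicate 1, which enters none of these differences, limma called 1018 genes from day 3 to 4 in place of 262, 4458 from day 4 to 5 in place of 2461, 2996 from day 5 to 7 in place of 1036, 2842 from day 7 to 9 in place of 950 and 43 from day 9 to 11 in place of 9. The F test among the 7 treated days called 5 of the 9, namely Ldha, Ldhd, Slc16a1, Slc16a6 and Bsg, beside 44.8% of all genes. Among all 8 groups it called the same 5, beside 47.4%.

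A straight line over the 21 treated arrays gave 3 falling members beside 20.4% of all genes. The slope per day was -0.084 for Ldha (SE 0.024, adjusted p = 0.0138), -0.124 for Slc16a6 (SE 0.028, adjusted p = 0.00209) and -0.042 for Slc16a1 (SE 0.013, adjusted p = 0.0192). Without day 1 the slope of Ldha was -0.006 (adjusted p = 0.810) and that of Slc16a6 -0.032 (adjusted p = 0.160), so both slopes rest on that day. The line without day 1 also called 3 members, Slc16a1 (-0.058, adjusted p = 0.0039), Ldhd, which fell by 0.067 per day (0.0457), and Bsg, which rose by 0.062 per day (0.0161). Without day 1 replicate 1 alone the Ldha slope was -0.064 (adjusted p = 0.0533). The slope of Slc16a1 was lost on a log2 scale of days (adjusted p = 0.0571). Over all alternatives the adjusted p ran from 3.25e-05 to 0.810 for Ldha, 2.48e-07 to 0.160 for Slc16a6 and 0.000232 to 0.0913 for Slc16a1.

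For each of these 5 genes the 3 most similar genes were named by Pearson's r over the 24 arrays, which share their groups. For Ldha they were Mcm2 (r = 0.987), a subunit of the replicative helicase, Rcc1 (0.982), which loads Ran at chromatin, and Fanca (0.980), of the Fanconi anaemia repair pathway. For Slc16a6 they were the nucleoporin genes Nup205 (0.958) and Nup85 (0.957) and the flap endonuclease gene Fen1 (0.955). Bsg was most like Taf5l (0.954), the cochaperone gene Fkbp4 (0.950) and the proteasome gene Psmc4 (0.949). Ldhd was most like Papln (0.935), Mtss1 (0.926) and the collagen gene Col16a1 (0.924), and Slc16a1 like Prmt9 (0.916), Pgm2l1 (0.881) and Rab3gap2 (0.875).

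Genes around these were read from 9 lists with 75 genes, 69 of them measured. The list called lower glycolysis, whose enzymes supply pyruvate to lactate dehydrogenase, had 5 measured genes. They were Pgk1, Pgam1 and Pkm, and Aldoa and Tpi1 of earlier steps. Of these 5, 4 fell on day 3 and all 5 on each later day. Their median change on day 11 was -0.94 beside -0.03 for all genes. Of all 19938 genes, 2762 fell on day 3 and 2343 on day 11. Pgam1 fell by 1.41, Pkm, the pyruvate kinase gene, by 1.06 and Pgk1 by 0.94 on day 11, with adjusted p of 1.27e-09, 3.62e-08 and 3.30e-05. None of the 5 passed the limma test on day 1, as with Ldha. Gapdh and Eno1 were not analysed here.

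Among 9 lactate carriers and partners, Nptn, which encodes neuroplastin, a relative of basigin, rose on days 3 to 11. On day 3 it was 0.40 higher (adjusted p = 0.0121) and on day 11 0.83 higher (1.78-fold, adjusted p = 5.72e-06). Slc5a8, a sodium-coupled lactate carrier, fell by 0.37 on day 11 from a dim level (adjusted p = 0.0329). Among 9 other SLC16 genes, which include Slc16a6, Slc16a13 rose by 0.63 on day 1 (adjusted p = 0.00245). It also rose by 0.34 on day 3 (0.0315) and by 0.79 on day 5 (1.24e-05). On day 4 (0.12) and on day 11 Slc16a13 did not pass. Slc16a4 rose on day 3 only, by 0.56 (adjusted p = 0.00710), also from a dim level (2.68 in control and 3.23 on day 3). In the lactate dehydrogenase family of 5 genes, which adds Ldhc and Ldhal6b, no gene beyond Ldha and Ldhd passed on any day. Here Ldhb was read by its brighter probe set only.

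Of 13 measured genes of pyruvate entry and pyruvate dehydrogenase, 1 rose and 5 fell on day 11, when 25.8% of all genes were called. Pdk2, a kinase that shuts the dehydrogenase off, rose by 0.78 (adjusted p = 0.000482). Pdk3, another such kinase, fell by 0.58 and the subunit genes Pdhx and Pdha1 fell by 0.52 each (adjusted p 0.00604, 0.00435 and 0.00102). Mpc1, a subunit of the mitochondrial pyruvate carrier, fell by 0.79 on day 1 (adjusted p = 0.00282). It also fell by 1.04 on day 3 (9.54e-06), 0.68 on day 4 (0.00107) and 0.76 on day 5 (0.000353). On day 11 it did not differ by the test (-0.05). Of 14 genes of pyruvate carboxylation, gluconeogenesis and transamination, 2 rose and 3 fell on day 11, again beside 25.8% of all genes. Me1, the cytosolic malic enzyme, rose by 0.97, and Mdh1 by 0.37. Of genes for mitochondrial enzymes, Me2 fell by 1.30, Mdh2 by 0.66 and Got2 by 0.94. Got1, for a cytosolic enzyme, did not pass on day 11. It fell by 1.01 on day 3 (adjusted p = 1.24e-06) and by 1.00 on day 4 (1.02e-06). Me3, the other mitochondrial malic enzyme gene on the list, did not pass on day 11. It rose by 0.73 on day 5 (adjusted p = 0.0162) from a dim level (4.25 in control). On day 1 Me1 rose by 0.70 (adjusted p = 0.0182) and Fbp2 by 0.76 (adjusted p = 0.00855).

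In the D-lactate route, Glo1, which turns methylglyoxal towards D-lactate, fell on all 7 days, by 0.62 on day 1 (adjusted p = 0.0121) and 0.45 on day 11 (0.0186). Hagh, the next enzyme, which releases D-lactate, fell by 0.44 on day 1 (adjusted p = 0.0303) and rose by 0.48 on day 11 (0.00301). Lactb2, which was on this list but encodes a mitochondrial ribonuclease and no enzyme of D-lactate, rose by 0.63 on day 11 (adjusted p = 0.0498). Of 4 measured lactate and acid sensing receptors none passed limma's test on any day, and none of the 28 pairs of gene and day had an unadjusted p below 0.05. All 4 were dim, with control means from 2.98 (Gpr4) to 4.22 (Gpr132), so a missing call does not limit how far they changed. Of 7 measured transcription factors known to act on Ldha and the carriers, 3 rose and 1 fell on day 11, beside 25.8% of all genes. Hif1a rose by 0.88 (adjusted p = 0.000297), Myc by 0.55 (0.000462) and Arnt by 0.41 (0.0343), while Esrra, an oestrogen-related receptor, fell by 0.41 (0.0225). On day 3 Myc fell by 0.48 (adjusted p = 0.00189) and Max by 0.50 (0.00769), while Hif1a rose by 0.51 (0.0276). On day 4 the change of Myc was -0.01 (adjusted p = 0.967). Transcript levels of these factors say nothing of their activity.

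**Figure D3:**
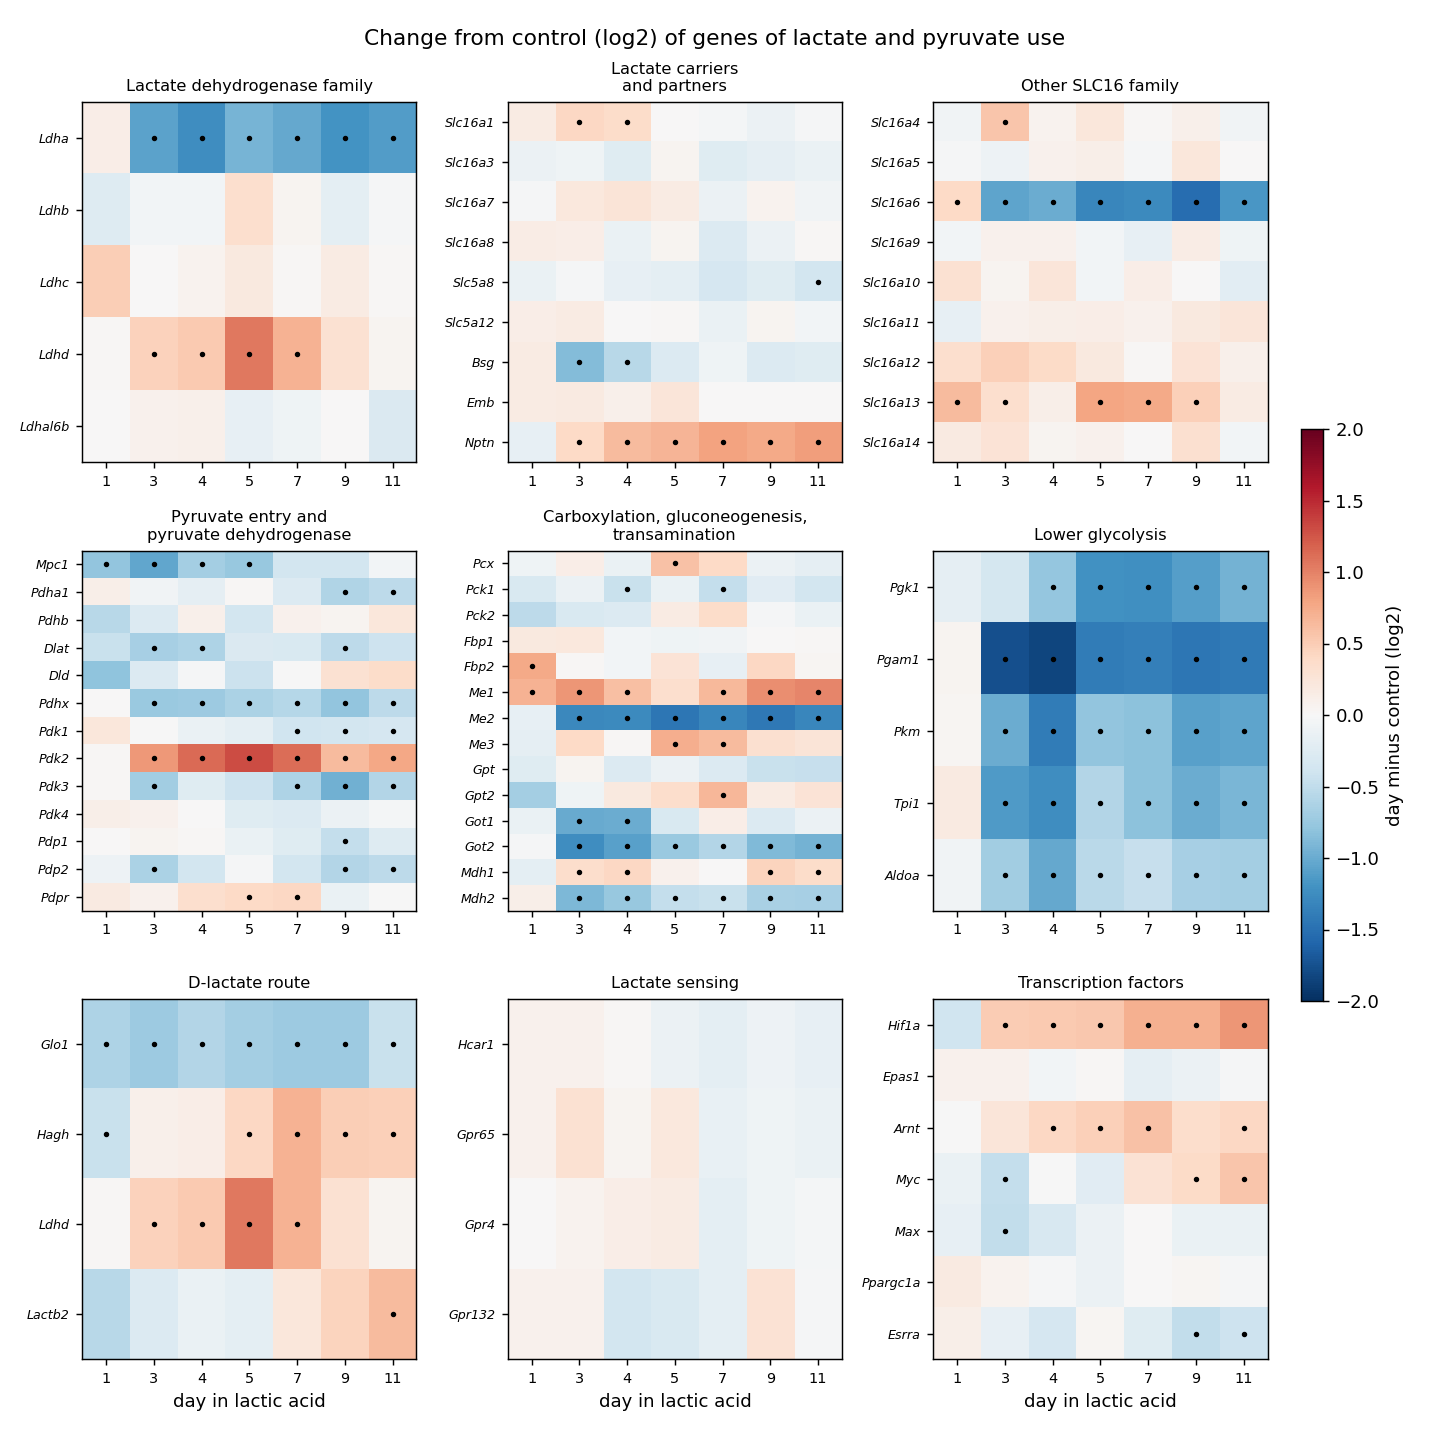
Change from control (colour, log2) of the measured genes of 9 lists (rows) on each day in lactic acid (columns). Dots mark changes past the limma threshold. The row of Ldha and the panel of lower glycolysis turn blue on day 3 or 4 and stay so, with Pgam1 at -1.41 and Pkm at -1.06 on day 11.

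Array medians over all probe sets lay between 4.40 and 4.75. Day 1 replicate 1 stood apart, since its genes had an SD of 1.94, where the other 23 arrays had 2.16 to 2.34. Its mean of 7 leukocyte markers was 4.43 (3.72 to 4.19 elsewhere), of 6 fibroblast markers 5.18 (4.53 to 5.35), of 6 endothelial markers 4.05 (3.32 to 3.76), and of 5 adipocyte markers 3.86 (3.25 to 3.57). Its part in the day 1 results was not tested beyond leaving it out, which kept the Slc16a6 call and raised the members called from day 1 to day 3 from 4 to 7. The added calls were rises of Ldhb (0.43, adjusted p = 0.0399), Slc16a7 (0.38, 0.0391) and Emb (0.32, 0.0340), the last 2 dim. Day 9 replicates 2 and 3 had the next highest medians (4.70 and 4.64) and complete the 3 arrays left out together. Their gene SDs of 2.17 and 2.21 lay within the range of the other arrays. Among 10 mammary epithelial markers Krt8 and Krt18 were bright in control (11.12 and 11.05), while Epcam (4.12) and Krt14 (4.30) were not. The 10 epithelial markers did not hold steady: 5 rose and 2 fell on day 3, beside 26.3% of all genes called. On day 11, 3 rose and 3 fell, beside 25.8%. Epcam, Krt19, Cdh1 and Cldn4 were called on every sampled day from day 3 on, and Krt8 on days 7, 9 and 11. Of 6 fibroblast markers, 1, Pdgfra, rose on days 3 to 11. In control 4 of the 6 lay above the array's median gene: Pdgfra (7.28), Col1a1 (5.50), Col3a1 (5.42) and Col1a2 (5.38). Dcn and Lum were dim (2.79 and 2.01). The labels do not say that replicates were separate cultures, so p-values reflect only how these arrays scatter, which may be technical.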

How the data were processed

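The series holds 24 single-channel arrays of 4T1 RNA, mapped to groups by their titles. The deposited log2 values are the authors' RMA signals. The submitters' processing notes name Affymetrix Expression Console 1.1 as the tool but the sources used here give no settings, and the log base was inferred from the range (0.96 to 14.71). RMA's quantile step, where used, makes the arrays' distributions alike, so a shift common to most genes would be lost.

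Of 35557 probe sets, 21789 had 1 gene symbol in an annotation table dated 2016. Each gene was represented by its brightest such probe set (19938 genes). Group means were fitted to all 24 arrays with limma 3.58.1 in R 4.3.3 (16 residual degrees of freedom), with Benjamini-Hochberg adjustment of the p-values of each comparison. The procedure was tested on simulated data.

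The 9 genes, the lists and the tests were chosen with earlier results of these data known. Beyond the 9, genes were named by rule: up to 3 rises and 3 falls per list on days 1 and 11, and the 3 most similar genes. Changes of Nptn, Slc16a4, Slc16a13, Mpc1, Me3, Got1, Myc, Max and Hif1a on other days, and the markers named, were chosen after their values were seen.

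Alternatives were other probe set rules, filters, normalisations, variance models, thresholds and sets of arrays. Centring on the median of all genes was added after the centring on all probe sets had been run and its results seen. Same-numbered replicates did not deviate together (16 of 84 pairs with r over 0.1), so they were not paired.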

Additional observations from a re-analysis of the deposited data

Results flagged for a closer look

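Changes from control that differ between treated days were found in 5 of the 9 genes by limma's F test among the 7 days, which called 44.8% of all genes. The adjusted p was 6.20e-09 for Ldha, 2.49e-05 for Ldhd, 0.000478 for Slc16a1, 3.07e-11 for Slc16a6 and 3.90e-06 for Bsg. The change of Ldha went from 0.14 on day 1 to -1.25 on day 4, and that of Slc16a6 from 0.40 on day 1 to -1.53 on day 9. Ldhd ran from 0.03 on day 1 to 1.06 on day 5, Slc16a1 from 0.41 on day 3 to -0.11 on day 9 and Bsg from 0.16 on day 1 to -0.86 on day 3.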

How the results depend on the processing

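No member that was called reversed under any alternative. Of 637 pairs of a called change and an alternative, 579 kept the call and 58 lost it. Of 1963 uncalled pairs, 71 gained a call and 1, Emb on day 1, changed sign with array weights (0.16 became -0.16, adjusted p = 0.0429). That array weights fit warned that it had stopped before convergence. The number of members called against control on day 1 was 1; it was 2 with cyclic loess and without the 3 arrays that stood apart, 7 with array weights, and 0 with either median centring, with only the arrays compared, at an adjusted p below 0.01 and at a 2-fold minimum, and 0 to 1 without 1 array. On day 3 (5) it was 3 with arrays centred on the median of all probe sets and 2 at 2-fold, and on day 4 (5) 1 at 2-fold. On day 5 (3) it was 6 with array weights, and on day 9 (2) 4 with array weights and 4 without the 3 arrays. From day 1 to 3 (4) it was 8 with weights, 7 without the 3 arrays and 3 to 7 without 1 array. From day 3 to 4 (0) both gave 1. From day 4 to 5 (2) it was 4 without the 40% dimmest genes, 1 with centring on all probe sets, 5 with weights, 6 without the 3 arrays, 0 at 0.01 and at 2-fold, and 0 to 4 without 1 array. From day 5 to 7 (0) it was 1 with weights, only the arrays compared or without the 3 arrays. From day 7 to 9 (0) it was 1 with centring on all probe sets, 5 with weights and 0 to 1 without 1 array (1, Ldhd, without day 9 replicate 1, at -0.56, adjusted p = 0.00461), and from day 9 to 11 (0) 1 with weights. Among the days (5) it was 8 with weights, and the slope (3) gave 1 at 0.01. The replicate block changed no count, with 5 members called on day 3, and 10 of 24 arrays resembled their own number best. Smaller shifts in these counts are not listed. On day 11, for example, Bsg gained a call with array weights (adjusted p = 0.0108) and without the 3 arrays (0.0425). The cause of these shifts was not tested.

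Over all genes, the day 1 count of 960 ranged from 6 with only the arrays compared to 8640 with array weights, and from 411 to 3026 without 1 array. The day 7 to 9 count of 950 ranged from 0 to 10744 and from 9 (without day 9 replicate 3) to 4262 (day 9 replicate 1). Without 1 array, the count from day 3 to 4 ran from 98 (without day 4 replicate 2) to 1018, from day 4 to 5 from 1504 (day 4 replicate 3) to 4458, from day 5 to 7 from 461 (day 7 replicate 3) to 2996, and from day 9 to 11 from 3 (day 11 replicate 2) to 346 (day 9 replicate 1). Centring on all probe sets moved the median of all genes from -0.01 to -0.12 on day 9 and turned 2621 higher and 2793 lower calls into 1754 and 3385.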
